A study of Rattus norvegicus with 24 samples.

Results

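The extraocular muscles (EOM), the small striated muscles that turn the eye, were compared between rats of 30 and of 6 months. The comparison took the 4 arrays of 30-month EOM and the 4 arrays of 6-month EOM, 8 of the 24 arrays in the series, and all probe sets other than the manufacturer's controls, 8740 of 8799. A probe set is the group of short probes that together report 1 transcript. After a filter on dim signals, 5741 probe sets representing 3419 named genes were tested.

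The series profiled EOM and the extensor digitorum longus (EDL), a fast hindlimb muscle, in rats of 6, 18 and 30 months, with 4 arrays for each of the 6 groups. Each array carried labelled RNA pooled from 4 animals and hybridised to the Affymetrix Rat Genome U34 platform. The groups used here are EOM at 6, 18 and 30 months, with EDL at 6 and 30 months beside them. The labels name no treatment or genotype for any group, and the sources used here give neither strain nor sex.

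Extraocular muscles contract faster and fatigue less than limb muscles, and they keep myosins that limb muscles express mainly during development. They are densely innervated, some of their fibres carry many endplates, and they lie among connective tissue pulleys and close to orbital glands. Limb muscle loses fibres and motor innervation in old age, and the question put by the series title is how expression in EOM shifts with ageing.

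The tissue labels were checked first. Myh13, the extraocular myosin heavy chain, read between 10666.8 and 15738.5 units on the 6-month EOM arrays and between 13341.6 and 19959.6 on the 30-month arrays, against group means of 87.5 and 98.3 in EDL at these ages. The summed signal of 4 extraocular muscle markers (Myh13, Myh8, Myh3 and Actc1) was 56649 to 84392 units at 6 months and 58563 to 89439 at 30 months, and for none of the 4 did the ages separate. Median signal per array was 104 to 136 units at 6 months and 108.5 to 127.5 at 30 months. Precision is limited by having 4 arrays per group. As a sign of RNA quality, the 3' probes of beta-actin were compared with its 5' probes, and their ratio was 1.41 ± 0.06 at 6 months and 1.32 ± 0.12 at 30 months (SD, n = 4 each; two-sided exact permutation test, p = 0.229, where the smallest p that 4 against 4 arrays allow is 0.0286). Of 8 orbital gland markers, Spt1 separated the ages downward and Klk1 upward, and the summed signal of all 8 was 3903 to 22592 units at 6 months and 5336 to 7094 at 30 months (two-sided exact permutation test, p = 0.571). Klk1 alone read 3331 to 6242.3 units at 30 months, most of the sum at that age. The sum therefore mixes opposite changes, and its test cannot show whether the other gland markers differed. The 6-month arrays of replicates 3 and 4 held the highest gland sums, 22592 and 9062 units, so results below are also given without them where that matters.

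Few transcripts of EOM passed the test between 6 and 30 months. In limma over all 24 arrays, 2 of 5741 probe sets (0.0348%) were called at an adjusted p under 0.05, both higher at 30 months: Atp2b2, a plasma membrane calcium pump, and a probe set without a gene symbol, U39609_s_at. At an unadjusted p under 0.05 there were 132 probe sets (2.3%), 70 higher and 62 lower. That share is smaller than the threshold itself would give with no change at all. The median log2 change over all probe sets was 0.01, the median size of a change was 0.15, and 59 probe sets differed more than 2-fold. Bounds could be set for most transcripts: the 95% interval of the change lay within 2-fold for 3795 probe sets (66.1%) and for 2376 genes (69.5%), and its median half-width was 0.64 on the log2 scale.

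Samples of the same replicate number varied together in EOM, and a model that takes the number as a block found more. Over the 12 EOM arrays with that block, 7 probe sets (0.122%) were called, 5 higher and 2 lower, and 444 reached an unadjusted p under 0.05. The 5 higher ones were Atp2b2, Nefm, Klk1 and 2 probe sets without a symbol, U39609_s_at and M18528cds_f_at. The lower ones were Col1a1 and the probe set U75405UTR#1_f_at, which carries no symbol. Of these 7, the block over all 24 arrays, which gave 3 calls, kept Atp2b2, U39609_s_at and Col1a1 and lost Nefm (limma adjusted p = 0.0718), Klk1 (0.999), M18528cds_f_at (0.085) and U75405UTR#1_f_at (0.121). Values given below with the block are those over the 12 EOM arrays, a setting chosen after the data were seen. Unless stated otherwise, those given without it are over all 24 arrays. A pair of such values therefore differs in the arrays used as well as in the block. Without the block the 12 EOM arrays gave 2 calls and 223 probe sets at an unadjusted p under 0.05.

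A looser description, close to the rule in the series' design text, counted probe sets whose 4 arrays at 30 months did not overlap the 4 at 6 months. There were 77 higher and 59 lower, and those whose means also differed more than 2-fold were 11 higher (0.192%) and 15 lower (0.261%). Counted by gene, with each gene represented by its brightest probe set, 47 genes (1.37%) were higher on all 4 arrays and 36 (1.05%) were lower. If the ages did not differ, 4 against 4 arrays would separate in either direction with a probability of 0.0286, and the higher and lower shares together do not exceed it. Separation of the arrays is therefore only a description below. No p-value belongs to these counts. The genes named next were taken by a rule from this set where they missed the adjusted threshold.

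Atp2b2 encodes a pump that moves calcium out across the cell membrane and is best known from neurons and hair cells. Its probe set (J03754Complete_seq_at, Entrez gene 24215) read 29.4, 25.3, 10.7 and 20.4 units on the 6-month arrays, 98.9, 94.8, 80.3 and 81.3 at 18 months, and 92.1, 130.1, 121.8 and 92.9 at 30 months. All arrays of the older ages lay above all arrays at 6 months, and 2 of the 6-month arrays lay at the floor set on low values. The probe set passed the filter on dim signals only through the older EOM groups, so the size of its change is set against a level near background. The log2 change was 1.96 (SE 0.32, limma adjusted p = 0.0163). With the replicate block it was 0.00668 over 12 EOM arrays, 0.0236 over 24 arrays and 0.06 over the 8 arrays of both ages. The rise was already present at 18 months (log2 1.67, limma adjusted p = 0.0318). In EDL the mean was 14.25 units at 6 months and 6.7 at 30 months, and the difference between the muscles in this change did not pass (limma adjusted p = 0.0689). Its level stayed below the median of all values, 116.6 units, on all but the 30-month arrays of replicates 2 and 3, so it is named as a called gene, after its values were seen, and not by the rule. The call was lost without the 6-month replicate 1, 2 or 3 (limma adjusted p = 0.0639, 0.0634 and 0.0563) or the 30-month replicate 2 (0.102), and without the 6-month replicates 3 and 4 together (0.154). It was also lost with a floor at the 10th percentile (limma adjusted p = 0.72), with an offset of 32 in place of the floor (0.0773) and with the 8 arrays alone (0.122).

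The unnamed probe set U39609_s_at moved further. It read 34.4, 70.9, 19 and 174.5 units at 6 months, 241.1, 134.1, 170.6 and 236.5 at 18 months, and 503.5, 532.9, 282.9 and 865.8 at 30 months. No array at 30 months overlapped one at 6 months, and the 18-month arrays lay between the group means. Like Atp2b2, the probe set passed the filter on dim signals only through older groups, and 1 of its 6-month arrays lay at the floor. The size of its change is thus also set against a level near background. The log2 change was 3.08 (SE 0.54, limma adjusted p = 0.0206; 0.00521 with the replicate block). In EDL it also rose, from a mean of 36.8 to 437.4 units (log2 3.50, limma adjusted p = 0.000288). The EOM call was lost without the 6-month replicate 1, 2 or 3 (limma adjusted p = 0.187, 0.0634 and 0.19) or the 30-month replicate 1, 2 or 4 (0.091, 0.102 and 0.19), and without the 6-month replicates 3 and 4 together (0.0672). Quantile normalisation (limma adjusted p = 0.0831), a floor at the 10th percentile (0.0947) and the 8 arrays alone (0.153) also ended it.

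Another unnamed probe set, M18528cds_f_at, read 30, 23.2, 8.3 and 99.1 units at 6 months and 276.4, 259.1, 98.4 and 474 at 30 months. It too passed the filter on dim signals only through older groups, and 2 of its 6-month arrays lay at the floor. The ages overlapped by a single pair of arrays (log2 2.65, SE 0.52, limma adjusted p = 0.0641; 0.0356 with the replicate block over 12 EOM arrays and 0.085 over 24). The probe set also rose in EDL (log2 2.03, limma adjusted p = 0.0382). A set of 7 tested probe sets, whose annotation lists several immunoglobulin kappa variable genes each, was looked at after these values were seen. Immunoglobulin light chains are made by B cells and plasma cells. All 7 had a positive log2 change in EOM, from 0.90 to 1.87, and none was called, with limma adjusted p from 0.46 to 1. Their log2 changes in EDL were 0.53 to 2.14. These probe sets belong to a family that shares sequence, so they do not count as 7 separate genes. Some of them, such as M18526cds_f_at with 23.1, 15.5, 4.8 and 40.9 units at 6 months, passed the filter only through groups where they were higher, which favours a positive sign. The other tested immunoglobulin probe sets, X68782cds_at and Z68145cds_at, had log2 changes of -0.08 and 0.03. The lymphocyte markers Cd3d, Cd4 and Cd8a were measured, 1 of them bright enough to be tested, and their summed signal was 166 to 260 units at 6 months and 156 to 291 at 30 months. The part of immune cells in these values was not tested.

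**Figure D1:**
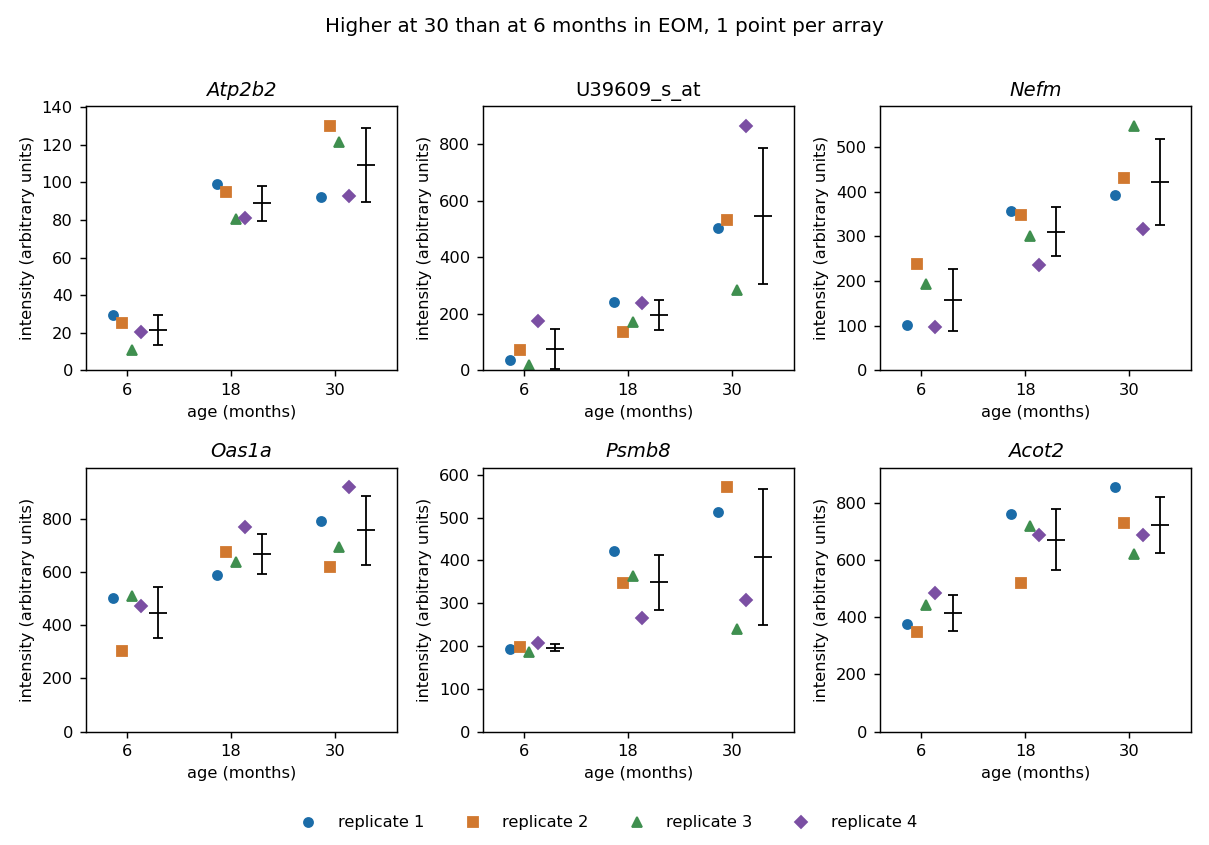
Intensity in EOM (arbitrary units, linear axis from 0) by age in months for 5 genes and the unnamed probe set U39609_s_at, with 1 symbol per array and the mean ± SD of 4 arrays in black. In each panel the 4 arrays at 30 months lie above the 4 at 6 months, and for Atp2b2 the 18-month arrays (80.3 to 98.9 units) are already far above those at 6 months (10.7 to 29.4).

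Among genes of nerve, 1 separated the ages. Nefm, the medium subunit of the neurofilaments that fill axons, read 101.4, 237, 192.5 and 95.8 units at 6 months, 356.6, 348.2, 300.4 and 236.5 at 18 months, and 392, 429.5, 547.3 and 316.9 at 30 months. The ages did not overlap, and the fitted difference was 2.85-fold (log2 1.51, SE 0.33). Without the block it missed the threshold (limma adjusted p = 0.179), and with the replicate block it passed over 12 EOM arrays (0.0277) but not over 24 (0.0718) or 8 arrays (0.057). In EDL its log2 change was 0.55 (limma adjusted p = 0.638), from a mean of 19.7 units. Over the 30 genes of Schwann cells and nerve tested, none was called without the block, 1 was higher on all arrays (as were 1.37% of all genes), and the median log2 change was 0.02 against 0.01 over all genes. Nefl, the light neurofilament subunit, had a log2 change of 0.01. Uchl1, a neuronal ubiquitin hydrolase, had 0.54 (SE 0.39) in EOM and 2.14 in EDL, where it was called (limma adjusted p = 0.00244). The summed signal of the Schwann cell markers Pmp22, Mbp and S100b was 4764 to 6517 units at 6 months and 4165 to 5862 at 30 months.

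Collagens and their processing enzymes formed the group with the most members on the lower side. Of 46 extracellular matrix genes tested, 36 had a negative log2 change and 10 a positive one, the median was -0.28 against 0.01 over all genes, 6 were lower on all 4 arrays and none was higher on all 4. Among all 3419 genes, 1639 had a negative change, 1.05% were lower on all 4 arrays and 1.37% were higher. Of the 46 matrix genes the calls were as follows. None was called without the replicate block, and Col1a1 was called with it. Bulk tissue was measured, so fewer cells of a type and less RNA per cell cannot be told apart here.

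Col1a1, the alpha-1 chain of type I collagen (Entrez gene 29393), read 3619.5, 6599.4, 5566.9 and 6721.7 units at 6 months, 2400.3, 2565.6, 4688.9 and 2892.2 at 18 months, and 1389.5, 2161.6, 2438 and 2098.1 at 30 months. The lowest array at 6 months was above the highest at 30 months, so each replicate number was necessarily lower at 30 than at 6 months. The log2 change was -1.47 (SE 0.39), a 2.76-fold difference, with limma adjusted p = 0.46 over 24 arrays without the replicate block. Over the 12 EOM arrays the limma adjusted p was 0.0631 without the block and 0.00521 with it. With all 24 arrays and the block Col1a1 also passed (limma adjusted p = 0.0236). Its 4 probe sets gave -1.28 to -1.61, and each of them separated the ages. The unnamed probe set U75405UTR#1_f_at, as bright as Col1a1, read 3627, 8615.4, 5034 and 7280.3 units at 6 months and 2033.1, 3506.6, 2158.5 and 1970.1 at 30 months (log2 -1.31, SE 0.34, limma adjusted p = 0.46; 0.0457 with the replicate block over 12 EOM arrays and 0.121 over 24).

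Col1a2, the partner chain of type I collagen, read 1999.4, 4509.4, 2453.4 and 3706.8 units at 6 months and 1770.7, 1628, 884.1 and 1440.9 at 30 months. The gap between the ages was narrow, between 1999.4 and 1770.7 units, both in replicate 1 (log2 -1.12, SE 0.29, limma adjusted p = 0.46; 0.159 with the block). Col3a1, the chain of type III collagen, read 2892.2, 7338.5, 2654.9 and 6787.3 units at 6 months and 2334.8, 2480.9, 836 and 2120.7 at 30 months. Its arrays did not overlap either (log2 -1.30, SE 0.36, limma adjusted p = 0.59; 0.177 with the block), and its second probe set, which overlapped, gave -1.07. Replicates 2 and 4 were the high arrays at 6 months for both genes.

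Col5a2, a chain of the type V collagen that nucleates fibrils, read 637.7, 1506.5, 666.9 and 858.3 units at 6 months and 519.9, 505.8, 299.6 and 352.1 at 30 months (log2 -1.08, SE 0.40, limma adjusted p = 1). Other members of the group that separated the ages were named after their values were seen. Lox, the enzyme that cross-links collagen and elastin, averaged 243 ± 40.8 units at 6 months and 139 ± 23.2 at 30 months (SD, n = 4; log2 -0.80, SE 0.43, limma adjusted p = 1). Lum, the fibril-binding proteoglycan lumican, averaged 1532 ± 146 and 998 ± 221 units (log2 -0.64, SE 0.40, limma adjusted p = 1). Neither passed with the replicate block, at limma adjusted p = 0.39 and 0.392.

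The same genes were lower in 30-month EDL, from separate arrays. There Col1a2 fell by 2.03 (limma adjusted p = 0.000124), Col3a1 by 1.85 (0.0043), Col1a1 by 1.60 (0.0233) and Col5a2 by 1.56 (0.0407) on the log2 scale. EDL at 30 against 6 months had 107 calls among 5741 probe sets (1.86%), and 5 of the 46 matrix genes were among the lower ones. By gene, 10 of 3419 were called lower in EDL. The difference between the muscles in these 4 changes did not pass (limma adjusted p = 0.998 for each). At 18 months the EOM collagens lay between the other ages, with log2 changes from 6 months of -0.85 for Col1a1, -0.62 for Col3a1 and Col5a2, and -0.38 for Col1a2. Without the 6-month arrays of replicates 3 and 4, where gland signal was high, the 4 changes were -1.30, -1.36, -1.26 and -1.12 for Col1a1, Col3a1, Col5a2 and Col1a2, with no call.

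**Figure D2:**
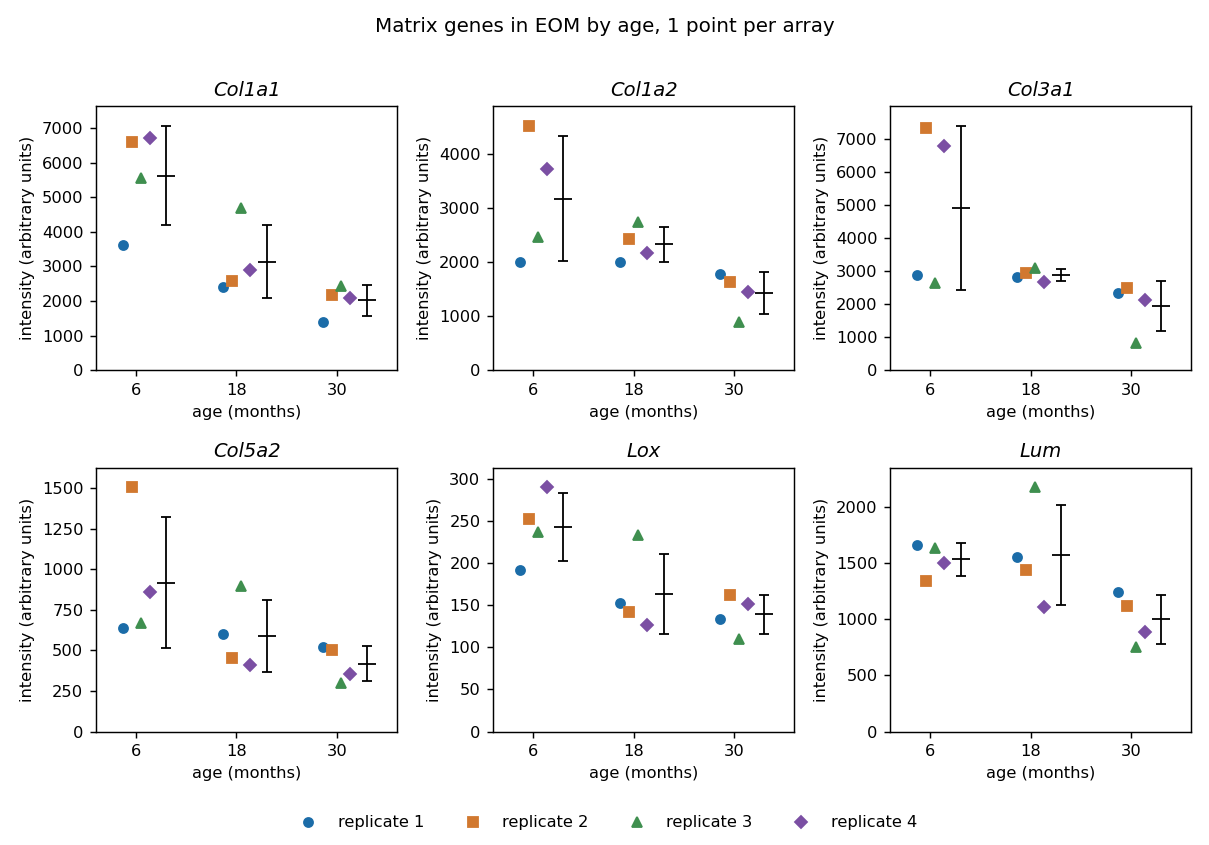
Intensity in EOM (arbitrary units, linear axis from 0) by age in months for 4 collagen genes, Lox and Lum, with 1 symbol per array and the mean ± SD of 4 arrays in black. Col1a1 read 3619.5 to 6721.7 units at 6 months and 1389.5 to 2438 at 30 months, while Col1a2 and Col3a1 show a wide spread at 6 months and a narrow gap between the ages.

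Markers of vessels were read beside the matrix genes. The smooth muscle markers Acta2, Myh11 and Cnn1 summed to 4168 to 8425 units at 6 months and 2852 to 6786 at 30 months, and the 13 genes of smooth muscle and pericytes had a median log2 change of -0.17 with none called. The endothelial markers Pecam1, Vwf and Kdr summed to 437 to 669 units at 6 months and 676 to 761 at 30 months. Pecam1, an adhesion molecule of endothelium, averaged 326 ± 55.7 units at 6 months and 448 ± 71.5 at 30 months and separated the ages (log2 0.46, SE 0.29, limma adjusted p = 1). Icam1, an adhesion molecule that binds leukocytes, averaged 186 ± 24.6 and 271 ± 42 units and separated them too (log2 0.54, SE 0.25, limma adjusted p = 1), while a dimmer probe set of it gave -0.13. Kdr, the main receptor for vascular endothelial growth factor, had a log2 change of 0.54 (SE 0.35) with overlapping arrays. Vwf, the remaining marker of that sum, went the other way (log2 -0.49, SE 0.47), also with overlap. Of 14 endothelial genes tested, 10 had a positive and 4 a negative change, none was called, and the median was 0.09. The part of vessel cells in the collagen values was not tested.

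Genes of antigen presentation and the interferon response leaned higher. Of 26 tested, 19 had a positive log2 change and 7 a negative one, the median was 0.18 against 0.01 over all genes, and 3 were higher on all 4 arrays, though none was called with or without the block. Among all 3419 genes, 1780 had a positive change and 1.37% were higher on all 4 arrays. EDL gave the same median, 0.18, with 3 genes called higher, against 48 of all 3419 genes. The 3 genes that separated the ages in EOM are shown with the DNA around their start sites. Each run gives 250 bases before and 50 after the annotated start of transcription (RefSeq, assembly GRCr8), with capitals marking matches to TTCNNNGAA, the letters of the interferon gamma activated site (GAS).

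Oas1a, chr12:41330216-41330515 (plus strand): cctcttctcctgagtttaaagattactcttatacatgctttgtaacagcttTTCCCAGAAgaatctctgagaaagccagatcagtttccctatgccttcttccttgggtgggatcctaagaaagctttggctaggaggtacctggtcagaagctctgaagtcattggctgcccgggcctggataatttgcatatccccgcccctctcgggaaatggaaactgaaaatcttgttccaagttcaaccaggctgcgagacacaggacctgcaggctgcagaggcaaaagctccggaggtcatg

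Psmb8, chr20:4656982-4657281 (minus strand): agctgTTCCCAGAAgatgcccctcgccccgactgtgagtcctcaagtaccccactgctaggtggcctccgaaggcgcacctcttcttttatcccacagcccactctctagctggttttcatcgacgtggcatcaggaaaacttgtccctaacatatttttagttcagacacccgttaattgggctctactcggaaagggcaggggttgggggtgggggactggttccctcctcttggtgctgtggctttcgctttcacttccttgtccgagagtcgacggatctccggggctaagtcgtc

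Psme2, chr15:33052702-33053001 (minus strand): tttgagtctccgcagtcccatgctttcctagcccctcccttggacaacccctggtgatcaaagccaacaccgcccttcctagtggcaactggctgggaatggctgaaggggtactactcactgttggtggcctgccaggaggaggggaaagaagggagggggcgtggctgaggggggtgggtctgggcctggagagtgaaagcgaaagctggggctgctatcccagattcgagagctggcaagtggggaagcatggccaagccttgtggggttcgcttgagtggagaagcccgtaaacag

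All 3 genes were found in the RefSeq table. Oas1a and Psmb8 each held 1 match, in both cases TTCCCAGAA, and Psme2 held none. Among 33469 promoters of the same length, 8.87% held at least 1 match on either strand. The other motifs searched on both strands were CACGTG (E-box, in 6.42% of promoters), CAGCTG (myogenic E-box, 15.1%), TTATGTAA (D-box, 0.893%) and TGACNNNGC (antioxidant element, 12.1%), and none of them occurred in these 3 promoters. The promoters found for matrix genes, those of Col1a2, Col5a2 and Lum, held no match to TTCNNNGAA or to any other motif searched. A match describes letters only, and no binding was measured.

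Oas1a, an interferon-induced sensor of double-stranded RNA, read 503.5, 303.9, 510.2 and 473 units at 6 months, 589.7, 677.5, 639.2 and 768.8 at 18 months, and 792.7, 620.1, 696.5 and 919.6 at 30 months. Both older ages lay above 6 months (log2 0.77, SE 0.22, limma adjusted p = 0.651; 0.154 with the block). Psmb8, a catalytic subunit of the immunoproteasome that prepares peptides for MHC class I, read 193.7, 196.9, 186 and 206.1 units at 6 months and 512, 570.6, 239.1 and 307.4 at 30 months. The 6-month arrays lay close together and the 30-month arrays far apart, with replicates 1 and 2 high (log2 0.97, SE 0.40, limma adjusted p = 1; 0.206 with the block). Psme2, a subunit of the proteasome activator induced by interferon gamma and named here after its values were seen, averaged 660 ± 4.99 and 842 ± 51.4 units (log2 0.35, SE 0.17, limma adjusted p = 1). Tap2, a subunit of the peptide transporter of the same pathway, averaged 158 ± 38.4 and 258 ± 55.6 units and overlapped between the ages (log2 0.72, SE 0.25, limma adjusted p = 1).

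Fuel genes held 2 of the named increases. Acot2, a mitochondrial thioesterase acting on fatty acyl-CoA, read 375.9, 348.3, 444 and 485.7 units at 6 months and 854.3, 729.6, 622.7 and 686.8 at 30 months. The arrays did not overlap (log2 0.81, SE 0.24, limma adjusted p = 0.651; 0.131 with the block), and a second, much dimmer probe set overlapped and gave 0.78. Fabp3, the fatty acid carrier of heart and muscle, read 8674, 9870.2, 6154.8 and 7972.5 units at 6 months and 10675, 13401.4, 10658.2 and 10586 at 30 months (log2 0.49, SE 0.19, limma adjusted p = 1). In EDL the log2 change was -0.53, and the difference between the muscles did not pass (limma adjusted p = 0.201). Of 47 genes of fatty acid oxidation and the TCA cycle, 34 had a positive log2 change and none was called, with a median of 0.08. Pdk4, the kinase that holds back pyruvate dehydrogenase when fat is burned, had a log2 change of 0.76 (SE 0.54) with overlapping arrays. Oxidative phosphorylation (33 genes, median 0.03) and glycolysis and glycogen (28 genes, median 0.05) had no calls, and the 95% interval lay within 2-fold for 32 of the 33 and 23 of the 28. Ak4, a mitochondrial adenylate kinase, had a log2 change of -0.35 (SE 0.25, limma adjusted p = 1).

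Signalling and surface genes completed the higher group. Cd55, a membrane protein that protects cells from complement, read 311.3, 413.7, 276.2 and 310.8 units at 6 months and 846.9, 500.8, 651.3 and 471.7 at 30 months. Every 30-month array was above every 6-month array (log2 0.89, SE 0.25, limma adjusted p = 0.59; 0.154 with the block), while a second, dimmer probe set gave 0.08. Prkcz, an atypical protein kinase C, read 130.1, 115.6, 78.2 and 113.5 units at 6 months and 245.1, 276.3, 163.4 and 219.7 at 30 months (log2 1.05, SE 0.30, limma adjusted p = 0.651; 0.097 with the block). Cdc42bpa, a kinase that acts downstream of the small GTPase Cdc42, averaged 132 ± 41 and 216 ± 17.1 units (log2 0.76, SE 0.29, limma adjusted p = 1). At 18 months these genes stood at log2 0.89, 0.76 and 0.47 above 6 months, and none was called. An unnamed probe set, rc_H31847_at, averaged 159 ± 15.8 and 231 ± 48.8 units without overlap (log2 0.52, SE 0.27, limma adjusted p = 1).

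Outside the matrix, Aldh3a1 and Igfbp3 were lower on all 4 arrays. Aldh3a1, an aldehyde dehydrogenase abundant in cornea, read 527, 408.4, 342.2 and 645 units at 6 months and 249, 178.3, 186.6 and 270.1 at 30 months. No array overlapped (log2 -1.10, SE 0.33, limma adjusted p = 0.672; 0.097 with the block). In EDL its log2 change was -0.51 (limma adjusted p = 0.668). Other members of the antioxidant and detoxification list went the other way: Gsta1, a glutathione transferase, averaged 1185 ± 296 and 1794 ± 98.8 units (log2 0.63, SE 0.28), and Cyp2e1, a cytochrome P450, 88.6 ± 22 and 131 ± 12.5 units (log2 0.59, SE 0.30). Both separated the ages with limma adjusted p = 1, though a second Cyp2e1 probe set gave -0.27 with overlap. None of the 42 genes of that list was called (median 0.06), and the Gsta1 probe sets match a gene family.

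Igfbp3, a binding protein that carries insulin-like growth factors, read 498.4, 437.3, 440.9 and 526.9 units at 6 months and 319.6, 191.8, 377 and 253.1 at 30 months (log2 -0.78, SE 0.24, limma adjusted p = 0.926; 0.267 with the block). Its second probe set, at 136 and 137 units, gave 0.34 (SE 0.73), so the gene's probe sets disagreed in sign. Igf1, the growth factor itself, read 1003.4, 1340.4, 1432.2 and 668.7 units at 6 months and 1064.9, 665.3, 597.8 and 389.7 at 30 months, with overlap (log2 -0.74, SE 0.32, limma adjusted p = 1). Its 5 probe sets gave -0.98 to 0.04. Igfbp2, another carrier, had a log2 change of -0.87 (SE 0.39, limma adjusted p = 1). Of 39 regulators of myogenesis and growth, 24 had a positive and 15 a negative change, none was called, and their median was 0.07. The unnamed probe set M81183Exon_UTR_g_at read 274.9, 347.8, 408.4 and 350 units at 6 months and 95.3, 163.7, 215.1 and 169.4 at 30 months (log2 -1.15, SE 0.33, limma adjusted p = 0.651; 0.0501 with the block).

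Lipid synthesis genes differed in both directions without a call. Sqle, an enzyme of cholesterol synthesis, read 134.6, 192, 403.7 and 243.4 units at 6 months and 99.6, 87.2, 185.9 and 86.5 at 30 months, with overlap (log2 -1.05, SE 0.43, limma adjusted p = 1). Insig1, a regulator of the same pathway, had a log2 change of -0.63 (SE 0.37) at 30 months and of -1.49 at 18 months. Fdft1, another enzyme of cholesterol synthesis, had 0.73 (SE 0.44), with overlap and limma adjusted p = 1. Its other probe sets gave -0.06, 0.30 and -0.31, so the gene's probe sets disagreed in sign. Gpd1, a glycerol phosphate dehydrogenase, had 0.80 (SE 0.71), also with overlap and limma adjusted p = 1. Of 25 genes of adipocytes and lipid synthesis, 17 had a negative change, none was called, and the median was -0.14. Tfrc, the transferrin receptor that brings iron into cells, averaged 225 ± 37.6 and 128 ± 46.9 units (log2 -0.86, SE 0.35, limma adjusted p = 1), and in EDL it fell by 1.74 (limma adjusted p = 0.00625). Thy1, a surface protein of fibroblasts, neurons and thymocytes, had a log2 change of -0.72 (SE 0.41), and Rpl35a, a ribosomal protein lower on all 4 arrays, -0.55 (SE 0.22), both with limma adjusted p = 1.

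The gland genes Spt1 and Pip varied widely between pools of the same age. Spt1, a salivary secretory protein, read 603, 823.2, 16578.7 and 5774.6 units at 6 months, 161.9, 164.3, 24663.5 and 31848.7 at 18 months, and 160.1, 254.7, 272.7 and 229.2 at 30 months. The 30-month arrays lay below all 6-month arrays, yet replicates 3 and 4 carried the high values at both younger ages (log2 -3.55, SE 1.24, limma adjusted p = 1, and -1.65 without the 6-month replicates 3 and 4). Pip, another secreted gland protein, was high on the same arrays, with 2607.1 and 368.4 units in replicates 3 and 4 at 6 months against 38.4 and 39.8 in replicates 2 and 1. Its log2 change was -2.03 (SE 1.24, limma adjusted p = 1), and 0.29 without the 6-month replicates 3 and 4. Klk1, tissue kallikrein, was higher at 30 months, with 2339, 3029, 2158 and 1870.2 units at 6 months and 6242.3, 5483.7, 3934.7 and 3331 at 30 months. No array overlapped (log2 0.99, SE 0.64, limma adjusted p = 1). With the replicate block Klk1 passed over 12 (limma adjusted p = 0.00521) and 8 EOM arrays (0.0449) but not over 24 (0.999). Without the block the 12 EOM arrays gave a limma adjusted p of 0.236. The same probe set rose in EDL, from a mean of 162 to 3509 units (log2 4.92, limma adjusted p = 4.73e-05). Its second probe set (M19647_f_at), which was built to match a gene family, averaged 819 ± 116 and 1275 ± 152 units and also separated the ages. Kallikrein genes are near-identical copies, so which of them these probe sets report is uncertain.

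The contractile machinery of EOM showed no call. The fast sarcomere list (17 genes) had a median log2 change of 0.12, the slow and cardiac list (13) 0.11, the list of developmental and extraocular isoforms (14) 0.09, and calcium handling (27) 0.09. The 95% interval lay within 2-fold for 15, 11, 13 and 22 of these genes. Myh13 itself had a log2 change of 0.22 (SE 0.35, limma adjusted p = 1). Mybpc2, the fast myosin-binding protein C, averaged 6313 and 8038 units (log2 0.35, SE 0.18, limma adjusted p = 1). Among smooth muscle genes, Myl9, a regulatory myosin light chain, had 0.69 (SE 0.37) on one probe set and -0.06 on another, and Myh11, smooth muscle myosin, had -0.49 (SE 0.45).

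The remaining lists also held no call in either direction. Circadian clock genes, which drive daily rhythms, had the highest median of any list, 0.34 over 9 genes with 8 positive. Per2, a repressor of the clock, averaged 87.8 ± 22.8 units at 6 months and 140 ± 16.6 at 30 months without overlap (log2 0.70, SE 0.41), and Bmal1, the activator, had -0.66 (SE 0.51), both with limma adjusted p = 1. With replicates 1 and 2 only the clock median was 0.59, and with replicates 3 and 4 only it was -0.07. The sources used here do not give the hour of sampling. Medians of T and B lymphocytes and plasma cells (11 genes), erythrocytes (6), endothelium (14), orbital gland (22), retina (8), macrophages, complement and inflammation (23), mast cells (7), heat shock and protein folding (29), cell death and stress signalling (21), and ribosomal proteins and translation (43) lay between 0.00 and 0.19. In the retina list, 2 of the 8 genes, Crybb2 and Opn1sw, were higher on all 4 arrays, against 1.37% of all genes. Those of ubiquitin, proteasome and proteolysis (39) and of the immediate early and handling response (31) were -0.02 and -0.03.

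**Figure D3:**
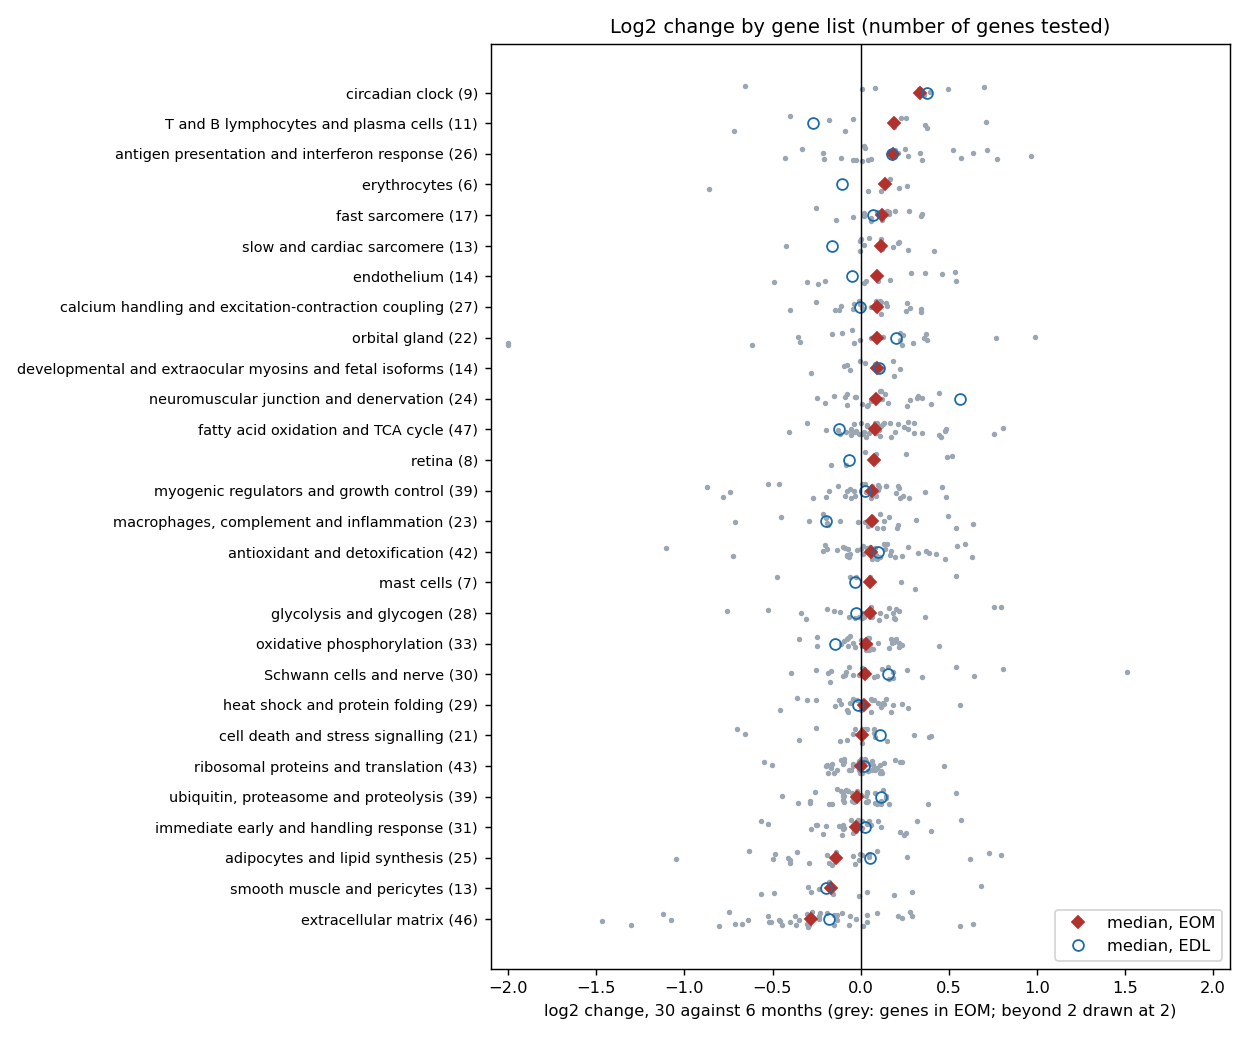
Log2 change at 30 against 6 months for each of 28 gene lists (rows, with the number of genes tested). Grey points are single genes in EOM, with those beyond 2 drawn at 2, red diamonds the EOM median and open blue circles the EDL median of the same genes; extracellular matrix has the lowest EOM median (-0.28) and circadian clock the highest (0.34), while neuromuscular junction and denervation has the widest gap between the muscles (0.09 and 0.57).

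EOM was set beside limb muscle for genes of the neuromuscular junction and of denervation, which muscle switches on when it loses its nerve. Of 24 such genes, none was called in EOM (median log2 change 0.09), 6 were called higher in EDL (median 0.57), and for 3 the difference between the muscles itself passed. Among all 3419 genes, 48 were called higher in EDL, and for 7 the difference passed. Over all 5741 probe sets the test of that difference (EOM change less EDL change) called 11 (0.192%), all with the larger rise in EDL. With the replicate block over 24 arrays the count was 34. Within EOM the log2 changes of these 11 probe sets were -0.37 to 0.64 and none was called. The EDL arrays were less even than those of EOM. At 6 months their beta-actin 3' to 5' ratios were 2.54, 3.54, 1.51 and 1.16, and the slow fibre markers Myh7 and Tnni1 summed to 9445 to 44108 units. The 30-month EDL array of replicate 1 had a median rank correlation of 0.873 with the others of its group. The part of RNA quality and fibre mix in the EDL changes was not tested.

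Chrna1, the alpha subunit of the muscle acetylcholine receptor, read 1426, 2040.1, 1452.8 and 1569.1 units in EOM at 6 months and 2065.5, 1656.8, 1664.5 and 1699 at 30 months. These arrays overlapped (mean 1622 ± 286 and 1771 ± 197), while in EDL the mean went from 494 ± 361 to 3932 ± 1447 units (log2 difference between the changes -3.01, limma adjusted p = 0.000321). Chrnb1, the beta subunit, averaged 1088 ± 137 and 1064 ± 103 units in EOM and 570 ± 65.2 and 1191 ± 143 in EDL (-1.09, limma adjusted p = 0.015). Chrnd, the delta subunit, averaged 882 ± 154 and 1188 ± 103 units in EOM without overlap (log2 0.45, SE 0.34, limma adjusted p = 1) and was called in EDL, but the difference between the muscles did not pass (limma adjusted p = 0.213).

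Gadd45a, a stress gene induced by denervation, averaged 1399 ± 199 and 1847 ± 308 units in EOM and 306 ± 112 and 3012 ± 1178 in EDL (-2.88, limma adjusted p = 0.000121). Its other 3 probe sets gave -3.03, -1.89 and -0.50 and did not pass (limma adjusted p = 0.0526, 0.73 and 0.998). Runx1, a transcription factor that muscle induces on denervation, had log2 changes of 0.33 (SE 0.35) in EOM and 1.98 in EDL, and the difference did not pass (limma adjusted p = 0.296). Among the other genes whose change differed were Igf2, an insulin-like growth factor (EOM 1082 ± 134 and 1096 ± 81.9 units; -2.12, limma adjusted p = 0.00383; its other probe sets gave -0.38 and -0.07), and Ankrd1, a stretch-responsive sarcomere protein (EOM 161 ± 27.7 and 176 ± 35.8 units; -2.98, limma adjusted p = 0.015). Ctsl, the lysosomal protease cathepsin L, was the member whose EOM arrays all lay lower at 30 months, averaging 2850 ± 350 and 2220 ± 131 units. In EDL it rose (difference -1.41, limma adjusted p = 0.00198). Its second probe set, S85184_g_at, gave -0.70 without passing. The probe set S85184_at, with the same name stem but no symbol in the annotation, passed (-2.26, limma adjusted p = 0.000321). Fst, follistatin, an inhibitor of myostatin, averaged 531 ± 72.9 and 452 ± 96.2 units in EOM (-1.56, limma adjusted p = 0.0437), and a second probe set did not pass (limma adjusted p = 0.361). Slc29a1, a nucleoside transporter, averaged 534 ± 65.6 and 524 ± 44.8 units in EOM (-1.30, limma adjusted p = 0.0186).

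**Figure D4:**
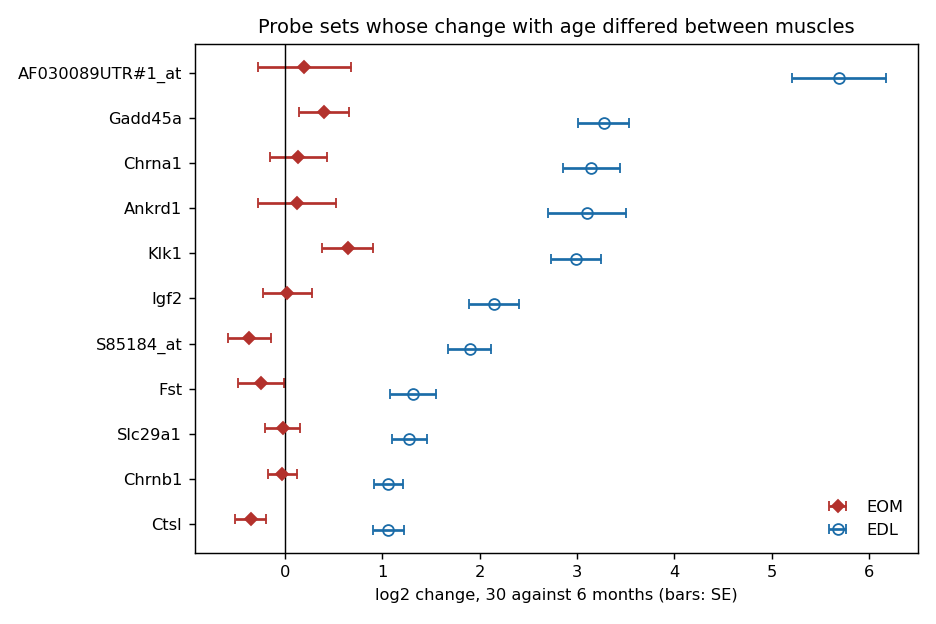
Log2 change at 30 against 6 months (horizontal axis) in EOM (red diamonds) and EDL (open blue circles) with bars of 1 SE for the 11 probe sets whose change differed between the muscles. EOM values lie between -0.37 and 0.64, while the EDL values of the same probe sets lie between 1.06 and 5.69.

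Genes that had changed in EDL were then read in EOM, whose arrays are separate. Of 48 genes called higher in EDL (median log2 change 1.52), 35 had a positive change in EOM, none was called there, 5 were higher on all 4 EOM arrays, and the EOM median was 0.11. Among all 3419 genes, 1780 had a positive change in EOM and 47 (1.37%) were higher on all 4 arrays. For 30 of the 48 the 95% interval of the EOM change lay within 2-fold. Of 10 genes called lower in EDL (median -1.42), all 10 had a negative change in EOM, 4 were lower on all EOM arrays, and the EOM median was -0.66. Among all 3419 genes, 1639 had a negative change in EOM and 36 (1.05%) were lower on all 4 arrays. The EDL medians belong to genes chosen on those values and are given as a description.

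The 18-month arrays show where the middle age lay. EOM at 18 against 6 months had 10 calls (0.174%), 1 higher (Atp2b2) and 9 lower, and EOM at 30 against 18 months had 1 (0.0174%), C3. C3, the central complement component, fell by 2.46 on the log2 scale from 6 to 18 months and was 2.77 higher at 30 than at 18 months, and it was looked at after its values were seen. These comparisons share arrays with the one at 30 against 6 months, so each value stands on its own. Among the genes named above, Cd55 (log2 0.89 at 18 and 0.89 at 30 months), Acot2 (0.70 and 0.81), Oas1a (0.60 and 0.77) and Psmb8 (0.82 and 0.97) had most of their 30-month difference at 18 months. Igfbp3 (-0.37 and -0.78) and the unnamed U39609_s_at (1.66 and 3.08) had about equal steps before and after 18 months.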

How the data were processed

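The deposited values are intensities, 1 for each probe set on each array. The authors made them with Microarray Suite (MAS5), per the submitters' processing notes and the series' design text. Dyes appear in the labels but biotin in the design text, so each array was treated as 1 colour. Of 8740 probe sets, 7006 have 1 symbol, 308 several and 1426 none in the platform annotation.

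Intensities below each array's 25th percentile (21.4 to 34.5 units) were raised to it before log2. Probe sets were kept for testing that passed the array's 40th percentile (53.8 to 83.8) on 3 of 4 arrays of a group. Changes were fitted with limma 3.58.1 in R 4.3.3 over 24 arrays and 6 groups (18 residual degrees of freedom), with Benjamini-Hochberg adjustment over 5741 probe sets and a threshold of 0.05. Fold changes are on the floored log2 scale and understate those of dim genes. Scripts were tested on simulated data. A gene is represented by its brightest probe set.

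Same-numbered EOM arrays of 6 and 30 months tended to deviate together (correlations 0.141 to 0.527, other pairs -0.385 to 0.236), so the replicate number was taken to pair them. This pairing comes from the data and not from the labels. The design text calls the replicates independent.

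Named genes were those called, then up to 6 per direction by smallest unadjusted p among genes with arrays apart and a mean above the median, the 4 largest changes of each list, and up to 2 probe sets without a symbol per direction. Members and lists were chosen with earlier results of these data known. Alternatives covered normalisation, floor, filter, arrays used, weights, the replicate block and each replicate left out. Promoters are RefSeq's, assembly GRCr8, found for 3 of 6 matrix and 3 of 3 antigen presentation genes.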

Additional observations from a re-analysis of the deposited data

Results flagged for a closer look

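Among 108 groups of 4 EOM arrays of the reported genes, 8 held an array far from the other 3, where chance gives about 5%. The high arrays at 30 months were U75405UTR#1_f_at in replicate 2 (3506.6 units), Sqle in replicate 3 (185.9), Fabp3 in replicate 2 (13401.4) and Thy1 in replicate 1 (353.1). Rpl35a in replicate 2 was the low one at that age (1638.1 units). At 6 months Pip was high in replicate 3 (2607.1 units), and Psme2 in replicate 2 (652.5) and Tfrc in replicate 1 (169.1) were low.

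For 11 probe sets the change from 6 to 30 months differed between the muscles, by limma's test of the difference. The log2 change in EOM minus that in EDL was -5.49 for AF030089UTR#1_at (limma adjusted p = 0.000121), -2.88 for Gadd45a (0.000121), -3.01 for Chrna1 (0.000321), -2.26 for S85184_at (0.000321), -2.35 for the dimmer Klk1 probe set M19647_f_at (0.00136) and -1.41 for Ctsl (0.00198). It was -2.12 for Igf2 (limma adjusted p = 0.00383), -2.98 for Ankrd1 (0.015), -1.09 for Chrnb1 (0.015), -1.30 for Slc29a1 (0.0186) and -1.56 for Fst (0.0437). The brighter Klk1 probe set, M19647_i_at, gave -3.93 and did not pass (limma adjusted p = 0.0767). Each of the 11 rose in EDL and none was called in EOM.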

How the results depend on the processing

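The count of 2 called probe sets became 1 with quantile normalisation, an offset of 32 in place of the floor, a filter at the 60th percentile, or replicates 3 and 4 only. It became 0 with a floor at the 10th percentile, the 8 EOM arrays alone, replicates 1 and 2 only, or the 6-month arrays of replicates 3 and 4 left out, and 4 with array weights. Leaving out 1 replicate gave 0 to 3. With the replicate block, which pairs arrays by number, 12 EOM arrays gave 7 and 8 EOM arrays gave 5, both added after seeing the data, and 24 arrays gave 3. Arrays apart with means over 2-fold apart gave 26. The 11 probe sets differing between muscles became 34 with the replicate block over 24 arrays, 1 with replicates 3 and 4 only, and 7 without the 6-month arrays of replicates 3 and 4 (added after seeing the data). Of 1577 log2 values under alternatives, which are changes in EOM of reported genes and EOM minus EDL changes of the 11 probe sets, 1574 kept their sign. Many of these genes were chosen for arrays that do not overlap, and the alternatives can hardly turn their sign, so the count is a description. With replicates 3 and 4 only Myh13 turned to -0.040 and Fdft1 to -0.25, and Pip turned to 0.29 without the 6-month arrays of replicates 3 and 4. Causes were not tested. Signal near background limits the dim probe sets, and 2999 were not tested.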
